A study of Canis lupus familiaris with 10 samples.

Results

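The comparison set untreated CLBL-1 cells against untreated 17-71 cells, 2 canine B-cell lymphoma cell lines whose labels give lymph node as the tissue of origin and of which the study's methods describe CLBL-1 as a diffuse large B-cell lymphoma line. The members were the 5 arrays whose titles say control, 3 of CLBL-1 and 2 of 17-71, out of 10 arrays in all. The other 5 arrays, 2 of CLBL-1 and 3 of 17-71, came from cells given 100 nM of a selective inhibitor of PRMT5, named PR220 in the labels, and entered the estimate of the spread and a line comparison of their own. Both lines grew in the same supplemented RPMI medium, but the labels give day 2 for CLBL-1 cultures and day 4 for those of 17-71, so that line and day of collection cannot be told apart in any value below. Each line is 1 established culture, and differences between them describe these cultures rather than types of lymphoma.

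A B cell is recognised by its surface antigens CD20 (gene MS4A1) and CD22, by the CD79A and CD79B chains that carry the signal of the B cell receptor, and by transcription factors such as PAX5 and EBF1 that switch on these genes and hold other lineages silent. Mature B cells also present antigen on MHC class II molecules, and a part of them passes through the germinal centre, where BCL6 is the leading factor, before becoming plasma cells. Myeloid cells such as macrophages instead use the Fc receptor gamma chain FCER1G and the adaptor TYROBP for their receptors. Which of these genes the 2 lines carried when untreated is the question the comparison addresses.

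Expression was measured on canine gene arrays as log2 intensities after robust multi-array averaging (RMA), so a difference of 1 is a 2-fold change. The medians of the 5 control arrays lay between 3.73 and 3.77 on this scale. No detection call came with the values, so a gene below the array median is described as low and not as absent, and a fold against such a gene depends on the background correction. Control arrays of CLBL-1 correlated with each other at Pearson's r from 0.992 to 0.993 across probe sets, the 17-71 pair at 0.99, and arrays of different lines at 0.936 to 0.937. Of 32391 probe sets, 10188 (31.5%) passed an adjusted p below 0.05, with 5429 (16.8%) higher in CLBL-1 and 4759 (14.7%) higher in 17-71. At least a 2-fold difference was also met by 3739 (11.5%), of which 1756 (5.42%) were higher in CLBL-1 and 1983 (6.12%) higher in 17-71. The control arrays of the lines did not overlap for 52.4% of probe sets. In the treated arrays 31.3% of probe sets passed, and the line difference itself differed between control and treated arrays for 0.0309% of probe sets and 0.0439% of genes. For gene groups the background is the 15947 genes with a probe set of their own, of which 21.7% were higher in CLBL-1 and 20.2% higher in 17-71. By at least 2-fold these shares were 7.44% and 8.85%. Control arrays did not overlap between the lines for 61.6% of these genes, and their median difference was 0.02. Every list count below is to be read beside these shares, and every statement of no overlap beside the 61.6%. Pairs of means are given with CLBL-1 first, as CLBL-1 against 17-71, and differences as CLBL-1 minus 17-71 with the standard error of the limma fit, and every p is adjusted over all probe sets by the method of Benjamini and Hochberg.

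The 15 genes furthest apart in each direction were taken first. MS4A1, which encodes CD20, measured 12.03, 12.02 and 12.04 in CLBL-1 and 2.02 and 2.36 in 17-71. The levels differed by 9.84 ± 0.13, or 918-fold (adjusted p = 2.07e-09), the largest difference of any gene, and both 17-71 arrays lay below the array median. GPR18, a G protein-coupled receptor of lymphocytes, measured 9.99, 10.03 and 10.01 in CLBL-1 and 2.80 and 3.05 in 17-71 (136-fold, adjusted p = 6.34e-09). CD1C, a lipid antigen-presenting molecule carried by B cells and dendritic cells, was 69.2-fold higher in CLBL-1. The same set of 15 held the transcription factors EGR2 (95.4-fold) and KLF3 (64.6-fold), the integrin chain ITGA4 (45.6-fold), the kinase PRKCA (48.2-fold), the GTPase regulators ARHGAP15 (72.2-fold) and ARHGAP24 (49.6-fold), and the annexin ANXA6 (46-fold). It was completed by NIPAL2 (431-fold), the fatty acid desaturase FADS1 (182-fold), PLAC8B (66.8-fold), DPY19L3 (62.6-fold) and the m6A reader YTHDF3 (45.6-fold).

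In the other direction, IL1R2, the decoy receptor for interleukin 1, measured 2.79, 3.09 and 2.63 in CLBL-1 and 11.54 and 11.42 in 17-71. It was 401-fold higher in 17-71 (adjusted p = 3.91e-09), and the groups were far from overlapping. KIT, the receptor for stem cell factor, measured 2.58, 2.09 and 2.37 in CLBL-1 and 9.65 and 9.65 in 17-71 and was 158-fold higher in 17-71 (adjusted p = 4.49e-09). Receptors and adaptors of innate cells were among the 15 highest in 17-71, namely TYROBP (161-fold), FCER1G (95.4-fold), FCER1A (129-fold), which encodes the alpha chain of the IgE receptor, and the endosomal receptor TLR8 (135-fold). They also held the ETS factors ETV5 (188-fold) and ETV1 (107-fold), cyclin D1 (CCND1, 127-fold), the Wnt receptor FZD6 (120-fold), the adaptor FYB1 (119-fold) and HORMAD1 (189-fold), a gene otherwise known from meiosis. The remaining genes were the kinase MAP3K13 (95.6-fold), the fatty acid-binding protein FABP3 (106-fold) and PLAC8A (93.2-fold). PLAC8A and PLAC8B, a pair of related genes on chromosome 32, thus lay at opposite ends of the ranking, and whether their probes bind both transcripts was not tested.

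**Figure D1:**
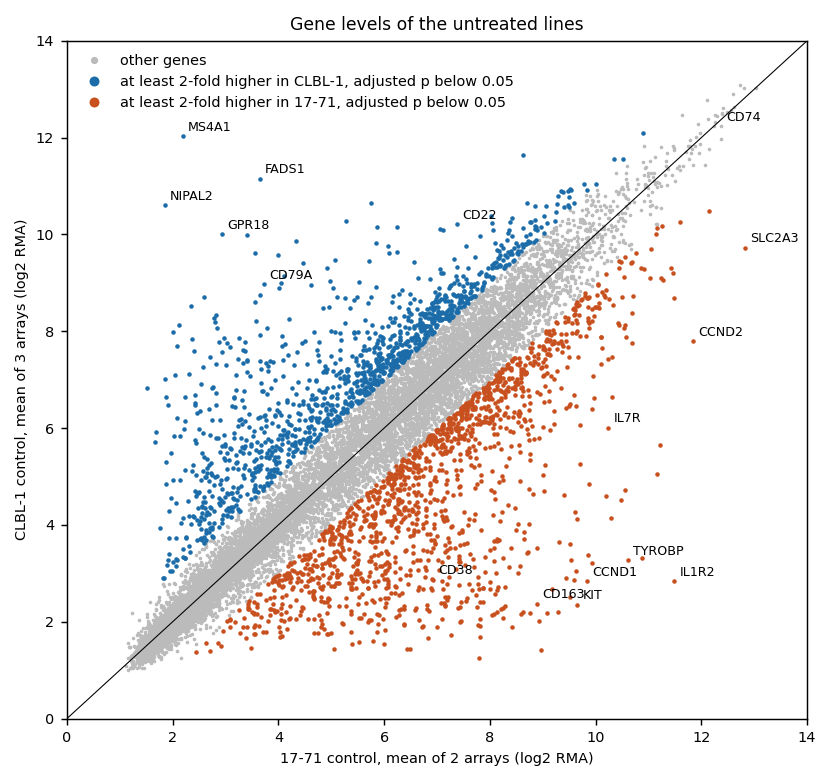
Each point is a gene, with its mean level in the 2 untreated 17-71 arrays on the x axis and in the 3 untreated CLBL-1 arrays on the y axis, both as log2 RMA intensity, and the line marks equal levels. MS4A1 lies furthest above the line at 12.03 against 2.19, and IL1R2 furthest below it at 2.83 against 11.48.

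The label of a B-cell line was checked against B-cell genes. Of 25 measured surface genes of B cells, 17 were higher in CLBL-1 and 4 were higher in 17-71, with a median difference of 0.70. CD79A, which carries the signal of the B cell receptor, measured 8.99, 8.96 and 8.97 in CLBL-1 and 3.65 and 3.80 in 17-71 (5.25 ± 0.13, adjusted p = 1.93e-08). Its partner CD79B measured 7.72, 7.50 and 7.87 in CLBL-1 and 4.05 and 4.09 in 17-71 (3.63 ± 0.33, adjusted p = 3.61e-05). Both genes lay near the array median in 17-71 and well above it in CLBL-1. CD22, an inhibitory receptor of B cells, was high in both lines but 7.13-fold higher in CLBL-1, at a mean of 10.21 against 7.37. CD72 (5.85 against 2.98) and TNFRSF13B, a receptor for the survival factors BAFF and APRIL (6.58 against 4.17), were likewise higher in CLBL-1. The 4 genes higher in 17-71 were CD38, CD180, CD83 and CD48. CD38, an ectoenzyme of progenitors and plasma cells, measured 2.80, 2.86 and 2.94 in CLBL-1 and 6.87 and 6.97 in 17-71 (16.6-fold, adjusted p = 1.21e-08). CD180, a Toll-like receptor homologue of B cells, had means of 7.33 against 10.09. CD27 and TNFRSF17, which mark memory B cells and plasma cells, were low in both lines and did not pass (adjusted p = 0.262 and 0.517). In 17-71, MS4A1 was thus below the array median and CD79A and CD79B close to it, while CD22, CD180 (10.09) and CD83 (7.91) were well above it. The defining markers were therefore divided in 17-71, and that line is referred to below by its name and its leading genes only.

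Signalling genes downstream of the B cell receptor followed a similar division. Of 45 measured, 25 were higher in CLBL-1 and 11 higher in 17-71 (median 0.46). The adaptor BLNK measured 9.05, 8.99 and 8.92 in CLBL-1 and 4.27 and 3.83 in 17-71 (30.8-fold, adjusted p = 2.63e-07). The B-cell kinase BLK (7.57 against 2.94), the Ras activator RASGRP3 (10.27 against 5.28) and the kinase PRKCD (10.15 against 6.25) were 24.8-, 31.9- and 14.9-fold higher in CLBL-1. Other parts of the cascade were similar in size, with BTK, the kinase that activates phospholipase C gamma, at 8.79 against 8.33 and the scaffold BANK1 at 7.68 against 8.50, in opposite directions. The common leukocyte antigen PTPRC (CD45) measured 9.59 against 9.76 and did not pass (adjusted p = 0.126), although it passed under quantile normalisation, cyclic loess, the intensity trend and the filter on low values.

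Among 36 transcription factors of the B lineage, 23 were higher in CLBL-1 and 9 higher in 17-71, with a median difference of 1.03. PAX5, which commits cells to the B lineage, measured 8.93, 8.67 and 9.06 in CLBL-1 and 5.14 and 4.93 in 17-71 (14.4-fold, adjusted p = 6.75e-08). EBF1, which acts with PAX5, measured 8.65, 8.49 and 8.67 in CLBL-1 and 3.65 and 3.45 in 17-71 (33.2-fold, adjusted p = 1.73e-07), although its second probe set differed by 2.43-fold (4.86 against 3.58), and the coactivator POU2AF1 was 19.7-fold higher in CLBL-1. PAX5 was above the array median in both 17-71 arrays, whereas EBF1 was below it. ETS1 (7.38 against 3.41), EGR1 (7.68 against 3.08) and RUNX1 (6.09 against 4.20) were also higher in CLBL-1, and IRF4, a factor of activated B cells and plasma cells, was high in both lines with a smaller difference (9.32 against 8.43). SPI1, which acts in both B and myeloid development, had means of 8.32 against 9.97 and IRF8 had means of 8.52 against 9.65, both higher in 17-71. BCL6, the repressor that leads the germinal centre programme, measured 4.57, 4.50 and 4.97 in CLBL-1 and 8.18 and 7.98 in 17-71 and was 10.5-fold higher in 17-71 (adjusted p = 4.16e-07). BACH2 was low in both lines (3.10 against 3.27, adjusted p = 0.436).

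Lists for later B-cell stages did not lean in 1 direction. Of 25 germinal centre genes, 9 were higher in CLBL-1 and 5 higher in 17-71 (median 0.03). LMO2, a germinal centre and progenitor gene, was 14.2-fold higher in CLBL-1 (7.90 against 4.07), and STAP1 (8.16 against 6.71) was also higher there, whereas GCSAM (2.10 against 3.67) was higher in 17-71. MAML3 was higher in 17-71 on the probe set used (4.69 against 7.19), and of its 4 probe sets 1 did not pass. Of 22 plasma cell genes, 10 were higher in each line. JCHAIN, which links polymeric antibodies, measured 8.46, 8.59 and 8.37 in CLBL-1 and 4.87 and 4.80 in 17-71, and SDC1, which encodes CD138, had means of 7.80 against 4.50, both higher in CLBL-1. XBP1 (7.31 against 7.83) and PRDM1 (4.39 against 5.21), the factors of the secretory programme, were higher in 17-71 by less than 1 log2 unit, and FKBP11 by 3.75-fold. Of 27 genes of activated and post germinal centre B cells, 13 were higher in CLBL-1 and 10 in 17-71, the latter led by the adaptor SLA (56.5-fold), cyclin D2 (CCND2, 7.79 against 11.84) and the factor ETV6 (6.01 against 9.01).

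**Figure D2:**
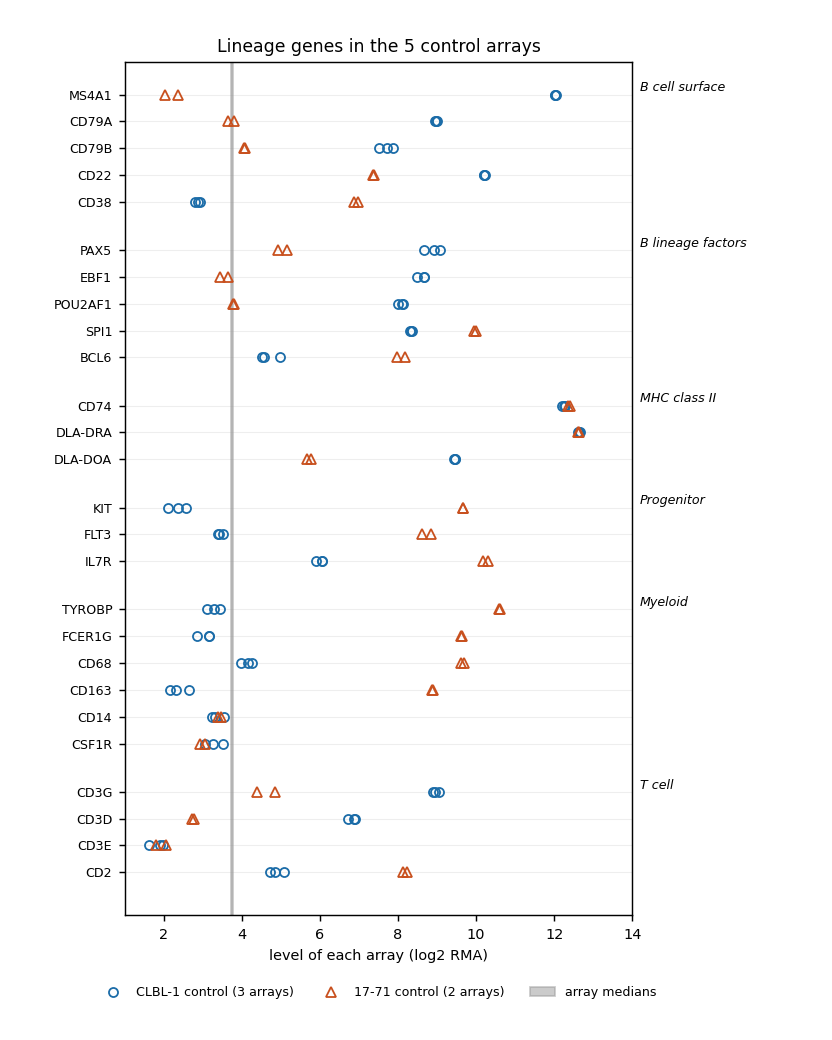
Levels of 26 lineage genes in the 3 CLBL-1 control arrays (circles) and the 2 17-71 control arrays (triangles) on the log2 RMA scale, with the range of the array medians as a grey band. The 2 symbols are apart for MS4A1, CD79A, KIT and TYROBP, and lie on top of each other for DLA-DRA and CD14.

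Of 25 measured genes of progenitor cells, 4 were higher in CLBL-1 and 9 in 17-71, and the median difference was -0.00491. Of the same 25, 8 were at least 2-fold higher in 17-71 (beside 8.85% of all genes) and 3 in CLBL-1 (beside 7.44%). Beside KIT, the receptor FLT3 of early lymphoid and myeloid progenitors measured 3.41, 3.53 and 3.39 in CLBL-1 and 8.83 and 8.62 in 17-71 (38.9-fold, adjusted p = 4.82e-09). The interleukin 7 receptor chain IL7R measured 6.06, 5.90 and 6.06 in CLBL-1 and 10.31 and 10.17 in 17-71 (18.8-fold, adjusted p = 2.67e-08). CRLF2, the receptor chain for thymic stromal lymphopoietin, which pairs with IL7R, had means of 2.02 against 7.46. All 3 were higher in 17-71 with no overlap, as for 61.6% of all genes in either direction. CD34, the usual marker of stem cells, was low in both lines (2.92 against 2.71, adjusted p = 0.262).

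Markers of other cell types were then examined, since a bulk array cannot tell fewer cells of a type from less RNA per cell. Of 33 myeloid markers, 4 were higher in CLBL-1 and 15 in 17-71, and the summed level of all 33, the log2 of their added linear intensities, lay between 11.56 and 11.62 in CLBL-1 arrays and between 12.91 and 12.92 in 17-71 arrays. CD68, a lysosomal protein of macrophages, measured 4.25, 3.97 and 4.15 in CLBL-1 and 9.60 and 9.69 in 17-71 (46-fold, adjusted p = 4.40e-09). CD163, the haemoglobin scavenger receptor, measured 2.65, 2.31 and 2.16 in CLBL-1 and 8.90 and 8.87 in 17-71 (91.4-fold, adjusted p = 2.27e-08). The calgranulin S100A9 had means of 3.28 against 9.53, and its partner S100A8 of 1.76 against 4.67. These genes, like 61.6% of all genes, did not overlap between the lines. CX3CR1 (2.09 against 6.21), AIF1 (4.08 against 7.12), CSF2RA (2.95 against 6.50), CSF2RB (4.83 against 7.76), CD86 (6.35 against 7.47) and ITGAX (5.05 against 6.13) were also higher in 17-71. The other 14 of the 33 markers did not pass, and 13 of the 33 were below the array median on all 5 control arrays. CD14 and CSF1R were among those that did not pass. CD14 measured 3.23, 3.54 and 3.31 in CLBL-1 and 3.46 and 3.38 in 17-71, and CSF1R, the receptor for macrophage colony-stimulating factor, had means of 3.28 against 2.99 (adjusted p = 0.803 and 0.221), below every array median. TLR2 (5.90 against 2.58) and TLR4 (5.63 against 3.47) were higher in CLBL-1, and lysozyme (LYZ) was high in both lines at 11.13 against 10.79. LYZ was the highest of the 33 in both lines and so weighs most in their summed level. The part of any other cell type in these differences was not tested.

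T-cell and NK-cell markers were mostly low, with 28 of 36 below the array median on all 5 control arrays. The summed level of the 36 lay between 9.84 and 9.92 in CLBL-1 and between 9.38 and 9.40 in 17-71. Of the 9 that passed, 5 were higher in CLBL-1. CD3G, a chain of the T cell receptor complex, measured 8.89, 9.05 and 8.95 in CLBL-1 and 4.84 and 4.38 in 17-71 (20.4-fold, adjusted p = 8.65e-08). CD3D measured 6.88, 6.91 and 6.71 in CLBL-1 and 2.78 and 2.71 in 17-71 (17-fold, adjusted p = 1.83e-07), and the co-stimulatory receptor CD28 had means of 6.04 against 3.76. The third chain, CD3E, measured 1.99, 1.89 and 1.63 in CLBL-1 and 1.80 and 2.05 in 17-71 and overlapped between the lines (adjusted p = 0.747). CD2 (4.89 against 8.18) and GATA3 (4.22 against 6.97), a factor of T cells and innate lymphoid cells, were higher in 17-71, and CD8A (3.38 against 3.63) was below the array median in both. CD4 had means of 2.89 against 3.61. Of 13 erythroid and platelet markers, GYPC (6.51 against 2.41), ITGB3 (6.97 against 5.31) and the transferrin receptor TFRC (9.89 against 8.86) were higher in CLBL-1 and the other 10 did not pass (unadjusted p from 0.0759 to 0.927), with summed levels of 10.3 to 10.41 against 9.31 to 9.33. Of 28 stromal, endothelial and epithelial markers, 1 was higher in CLBL-1 and 6 in 17-71, with summed levels of 12.1 to 12.18 against 12.04 to 12.09, and the adhesion molecules CDH1 (2.72 against 6.21) and PECAM1 (2.71 against 4.07), the VEGF receptor KDR (2.70 against 5.70) and the keratin KRT18 (3.27 against 4.45) were at least 2-fold higher in 17-71. Summed levels follow the highest member of a list. That was TFRC for the erythroid and platelet list and VIM (12.02 against 11.90) for the stromal, endothelial and epithelial list. The part of these marker lists in the result was not tested.

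Several antigen-presenting genes of MHC class II were at high level in both lines. DLA-DRA, the alpha chain of the DR molecule, measured 12.66, 12.64 and 12.62 in CLBL-1 and 12.64 and 12.61 in 17-71 and overlapped between the lines (adjusted p = 0.898), with a difference of 0.02 whose 95% interval ran from -0.14 to 0.17. CD74, the chaperone of class II molecules, measured 12.19, 12.28 and 12.25 in CLBL-1 and 12.39 and 12.36 in 17-71 (adjusted p = 0.208). DLA-DQA1 was lower in CLBL-1 by a small margin (11.55 against 11.76, adjusted p = 0.0492), a call lost without any 1 of the 5 control arrays. Of all 17 measured class II genes, 8 were higher in CLBL-1 and 3 in 17-71 (median 0.22). DLA-DOA, which modulates peptide loading in B cells, measured 9.43, 9.47 and 9.46 in CLBL-1 and 5.66 and 5.76 in 17-71 (13.4-fold, adjusted p = 4.27e-07). The lysosomal thiol reductase IFI30 (11.63 against 8.63) and the protease LGMN (7.97 against 5.43), both of which prepare antigen for loading, were also higher in CLBL-1, as was the peptide exchanger DLA-DMB (10.80 against 9.29). The transactivator CIITA differed by 0.55 (6.82 against 6.27), and RFX5, which binds class II promoters, was higher in 17-71 (7.01 against 8.36).

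For class I presentation the balance was the other way, with 6 of 22 genes higher in CLBL-1 and 12 higher in 17-71 (median -0.26). The trimming aminopeptidase ERAP2 measured 8.25, 8.28 and 8.25 in CLBL-1 and 4.00 and 4.39 in 17-71 (16.7-fold, adjusted p = 1.15e-07), and CD1B, a lipid-presenting molecule, had means of 7.15 against 3.40. ERAP1 (8.17 against 6.92) and DLA-64 (7.68 against 6.25) were higher in CLBL-1 as well. The second probe set of DLA-64 differed by more, at 8.71 against 5.23 (11.1-fold). TAPBPL, an editor of class I peptides (5.63 against 8.40), and FCGRT, the neonatal Fc receptor (4.12 against 7.11), were higher in 17-71.

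Receptors that place lymphocytes in tissue differed by line. Of 44 chemokine, homing and adhesion receptors, 15 were higher in CLBL-1 and 10 higher in 17-71 (median 0.08). CXCR5, which draws B cells into follicles, measured 8.68, 8.76 and 8.80 in CLBL-1 and 3.71 and 3.58 in 17-71 (34.2-fold, adjusted p = 3.91e-09). ITGA4, the alpha 4 chain of the integrins for VCAM-1 and MAdCAM-1, measured 8.21, 8.40 and 8.39 in CLBL-1 and 2.86 and 2.79 in 17-71. Its partner chain ITGB7 was 12.5-fold higher in 17-71 (6.06 against 9.71), so that the 2 chains of the gut-homing integrin differed in opposite directions. The tetraspanin CD9 measured 2.62, 2.44 and 2.40 in CLBL-1 and 7.56 and 7.58 in 17-71 (33.9-fold higher in 17-71, adjusted p = 1.28e-08), and the nucleotide sugar receptor P2RY14 had means of 2.03 against 5.71.

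Cytokine receptors and co-stimulatory molecules were more often higher in 17-71, with 25 of 54 higher there, 19 of them at least 2-fold, and 8 higher in CLBL-1 (median -0.17). IL2RA, the alpha chain of the interleukin 2 receptor (CD25), measured 3.30, 3.81 and 3.94 in CLBL-1 and 8.14 and 8.20 in 17-71 (22.4-fold, adjusted p = 2.91e-07). The shared receptor chain IL6ST had means of 6.46 against 9.63, and TNFSF8, the ligand of CD30, had means of 3.31 against 8.25. IL13RA1 was 46.9-fold higher in 17-71 on the probe set used, while its second probe set was low in both lines (2.86 against 2.48) and higher in CLBL-1. SLAMF6, a self-ligand receptor of lymphocytes, was 13.3-fold higher in CLBL-1 (7.39 against 3.65).

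**Figure D3:**
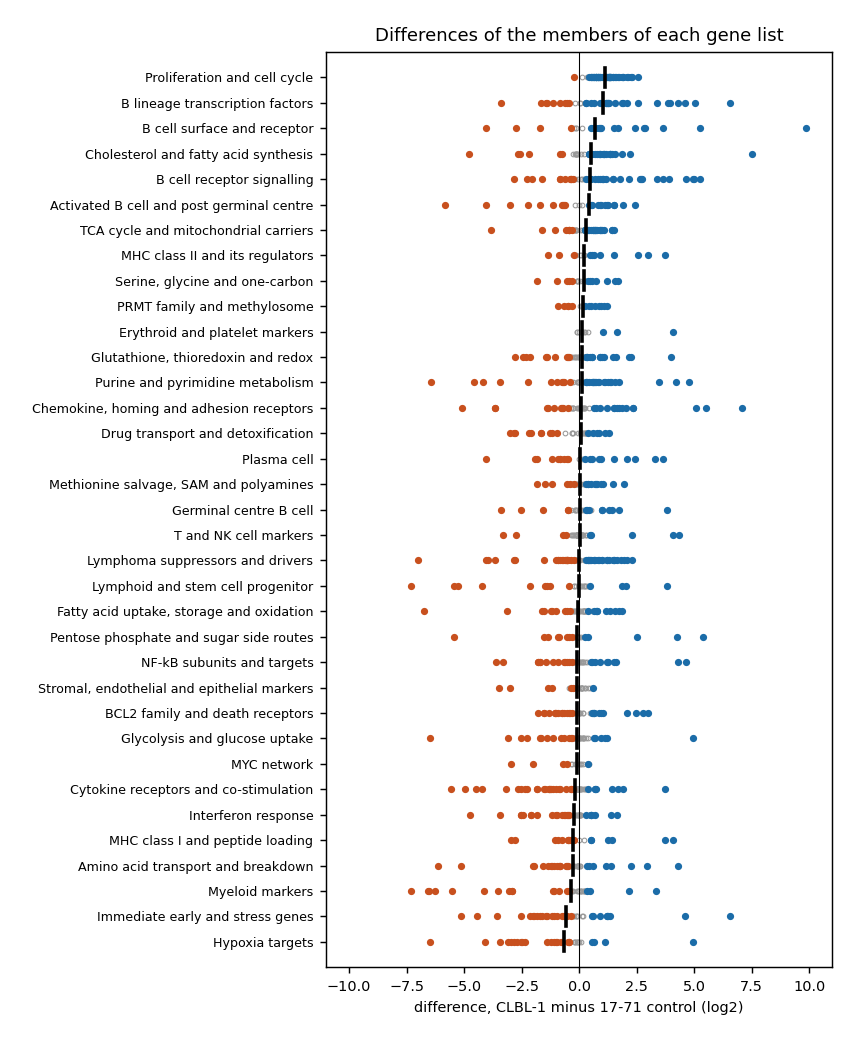
Each row is a gene list, ordered by its median difference (black bar), and each point is a member, with the difference CLBL-1 minus 17-71 control on the x axis on the log2 scale. Filled blue and orange points passed an adjusted p below 0.05, open grey points did not. The proliferation list has the highest median at 1.12 and the hypoxia list the lowest at -0.64.

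Metabolic genes were described by route. Of 39 genes of glycolysis and glucose uptake, 6 were higher in CLBL-1 and 13 in 17-71 (median -0.10), beside 21.7% and 20.2% of all genes. SLC2A3, the high-affinity glucose transporter GLUT3, measured 9.50, 9.76 and 9.92 in CLBL-1 and 12.83 and 12.81 in 17-71 (8.54-fold higher in 17-71, adjusted p = 1.26e-06). SLC16A3, the lactate exporter MCT4, measured 3.50, 3.29 and 3.31 in CLBL-1 and 9.82 and 9.91 in 17-71 (90.1-fold, adjusted p = 1.42e-08). Triose phosphate isomerase (TPI1) had means of 10.48 against 12.15. The aldolase isoform ALDOC measured 9.42, 9.36 and 9.45 in CLBL-1 and 4.49 and 4.45 in 17-71 and was 30.7-fold higher in CLBL-1 (adjusted p = 4.29e-08). PDK2, which restrains pyruvate dehydrogenase, was higher in 17-71 (3.92 against 6.44), as were PFKFB2 (3.22 against 5.49) and TIGAR (5.80 against 7.50), which set the level of fructose bisphosphates. Among 23 genes of the pentose phosphate and sugar side routes, 5 were higher in CLBL-1 and 8 in 17-71. PGM2, a phosphopentomutase, measured 8.19, 8.23 and 8.18 in CLBL-1 and 2.71 and 2.90 in 17-71 (42-fold higher in CLBL-1), with gluconate kinase IDNK (5.93 against 1.69) and the galactose enzyme GALT (6.26 against 3.73) in the same direction. The glycogen branching enzyme GBE1 measured 2.40, 2.36 and 2.17 in CLBL-1 and 7.80 and 7.70 in 17-71 and was 43.4-fold higher in 17-71 (adjusted p = 5.11e-09).

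The list of TCA cycle and carrier genes, which also held cytosolic enzymes such as GOT1 and ME1, leaned to CLBL-1. Of 39 genes of the TCA cycle and mitochondrial carriers, 21 were higher in CLBL-1 and 8 in 17-71 (median 0.28). Among genes placed on a chromosome with a mean level above 6, 38.5% were higher in CLBL-1 and 30.8% in 17-71 (median 0.08). IDH3G, a subunit of the NAD-dependent isocitrate dehydrogenase, measured 8.25, 8.28 and 8.35 in CLBL-1 and 6.67 and 6.87 in 17-71 (2.86-fold, adjusted p = 3.11e-06), whereas the treated arrays differed by 0.21 (adjusted p = 0.133). DLAT of the pyruvate dehydrogenase complex (8.26 against 6.82), the aspartate aminotransferase GOT1 (8.63 against 7.20) and the citrate carrier SLC25A1 (9.12 against 8.06) were also higher in CLBL-1. A pair of enzymes that make NADPH went the other way. IDH2 had means of 9.29 against 10.91, and malic enzyme ME1 measured 2.95, 2.69 and 3.15 in CLBL-1 and 6.96 and 6.59 in 17-71 (14.3-fold higher in 17-71, adjusted p = 1.97e-07).

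Lipid synthesis also leaned to CLBL-1, with 23 of 38 genes of cholesterol and fatty acid synthesis higher there and 6 higher in 17-71 (median 0.53). The placed genes with a mean level above 6, at 38.5% and 30.8%, leaned the same way by less. FADS1, the delta-5 desaturase that makes arachidonic acid, measured 11.19, 11.19 and 11.08 in CLBL-1 and 3.53 and 3.76 in 17-71 (182-fold, adjusted p = 2.07e-09), and MVD of the mevalonate route had means of 9.28 against 7.05. Against this direction, ELOVL6, which lengthens palmitate, measured 1.98, 1.82 and 1.91 in CLBL-1 and 6.69 and 6.73 in 17-71 (28-fold higher in 17-71, adjusted p = 8.74e-09), and ACACB (3.90 against 6.57), TM7SF2 (3.46 against 6.04) and the acyl-CoA synthetase ACSL5 (7.26 against 9.46) were also higher in 17-71. Of 46 genes of fatty acid uptake, storage and oxidation, 10 were higher in each line, close to the 21.7% and 20.2% of all genes. FABP3 measured 3.28, 3.29 and 3.06 in CLBL-1 and 9.91 and 9.96 in 17-71, and ECI2, an isomerase of the oxidation of unsaturated fatty acids, had means of 6.08 against 9.21, both higher in 17-71. The glycerol acyltransferase GPAM (6.42 against 4.58) and the lipid droplet protein PLIN2 (7.39 against 5.85) were higher in CLBL-1.

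Amino acid genes held some of the largest metabolic differences. Of 38 measured, 8 were higher in CLBL-1 and 16 in 17-71 (median -0.28). ASS1, which makes argininosuccinate and so allows arginine synthesis from citrulline, measured 4.10, 4.05 and 4.30 in CLBL-1 and 10.29 and 10.28 in 17-71 (70.2-fold higher in 17-71, adjusted p = 3.92e-09). ASNS, asparagine synthetase, measured 2.76, 2.90 and 2.35 in CLBL-1 and 7.84 and 7.76 in 17-71 (35-fold higher in 17-71, adjusted p = 5.64e-08). All 3 CLBL-1 arrays lay below the array median for ASNS, and just above it for ASS1. In the kynurenine route of tryptophan breakdown, KYNU measured 10.08, 10.21 and 10.16 in CLBL-1 and 6.09 and 5.65 in 17-71 (19.4-fold higher in CLBL-1, adjusted p = 5.25e-08) and KMO had means of 6.82 against 3.86. Of 23 genes of serine, glycine and one-carbon metabolism, 7 were higher in CLBL-1 and 5 in 17-71, beside 21.7% and 20.2% of all genes. SHMT1 (8.57 against 6.90) and PSPH (6.12 against 7.94) were the largest in each direction.

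The supply of the methyl donor S-adenosylmethionine, which PRMT5 consumes, was looked at on its own. Of 30 genes of methionine salvage and polyamines, 11 were higher in CLBL-1 and 6 in 17-71 (median 0.05). MTAP, which breaks down methylthioadenosine, an inhibitor of PRMT5, measured 7.51, 7.53 and 7.49 in CLBL-1 and 5.55 and 5.57 in 17-71 (3.85-fold, adjusted p = 1.97e-07), and both 17-71 arrays were above the array median. ODC1, the first enzyme of polyamine synthesis (10.31 against 8.85), and MAT2A, which makes S-adenosylmethionine (9.46 against 8.43), were also higher in CLBL-1, and the methionine synthase reductase MTRR (6.37 against 8.18) was higher in 17-71. PRMT5 itself measured 8.77, 8.70 and 8.73 in CLBL-1 and 7.72 and 7.86 in 17-71, a difference of 0.94 ± 0.09 or 1.92-fold (adjusted p = 4.59e-05). Its arrays did not overlap between the lines, as for 61.6% of all genes. Of 17 genes of the PRMT family and its partners, 8 were higher in CLBL-1 and 5 in 17-71. PRMT7 followed PRMT5 (8.01 against 7.14), while RIOK1, an adaptor of PRMT5 (7.26 against 7.93), was higher in 17-71. CLNS1A, another partner of PRMT5, was higher in CLBL-1 by 0.67 to 1.47 across the fits, a call lost in some of them.

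Of 47 measured genes of purine and pyrimidine metabolism, 22 were higher in CLBL-1 and 11 in 17-71 (median 0.13). CTPS2, a CTP synthase, measured 7.57, 7.28 and 7.55 in CLBL-1 and 3.06 and 2.36 in 17-71 (27-fold, adjusted p = 2.88e-07), and adenosine deaminase ADA measured 9.04, 8.98 and 9.01 in CLBL-1 and 5.45 and 5.60 in 17-71 (11.2-fold, adjusted p = 1.24e-08). The ribonucleotide reductase subunit RRM2B (7.59 against 3.37) and deoxycytidine kinase DCK (9.83 against 8.09) were higher in CLBL-1 too. Other members were higher in 17-71. DPYD, the first enzyme of uracil breakdown, measured 2.08, 2.27 and 2.15 in CLBL-1 and 8.73 and 8.45 in 17-71 (85.9-fold, adjusted p = 4.82e-09), uridine phosphorylase UPP1 had means of 3.34 against 7.91 and cytidine deaminase CDA had means of 3.24 against 7.42. The ectonucleotidase ENTPD1 had means of 6.22 against 8.43.

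Redox and detoxification genes completed the metabolic lists. Of 43 glutathione, thioredoxin and redox genes, 15 were higher in CLBL-1 and 10 in 17-71 (median 0.13). GSTP1, a glutathione transferase, measured 7.49, 6.97 and 7.54 in CLBL-1 and 3.51 and 3.14 in 17-71 (16.1-fold, adjusted p = 9.07e-07), and GSTA4 (5.13 against 7.45), MGST3 (4.35 against 6.78) and NQO2 (5.03 against 7.83) were higher in 17-71. Of 33 drug transport and detoxification genes, 6 were higher in CLBL-1 and 10 in 17-71, beside 21.7% and 20.2% of all genes. Those higher in 17-71 were led by ALDH2 (4.16 against 7.16) and the efflux pump ABCC4 (3.14 against 5.96).

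**Figure D4:**
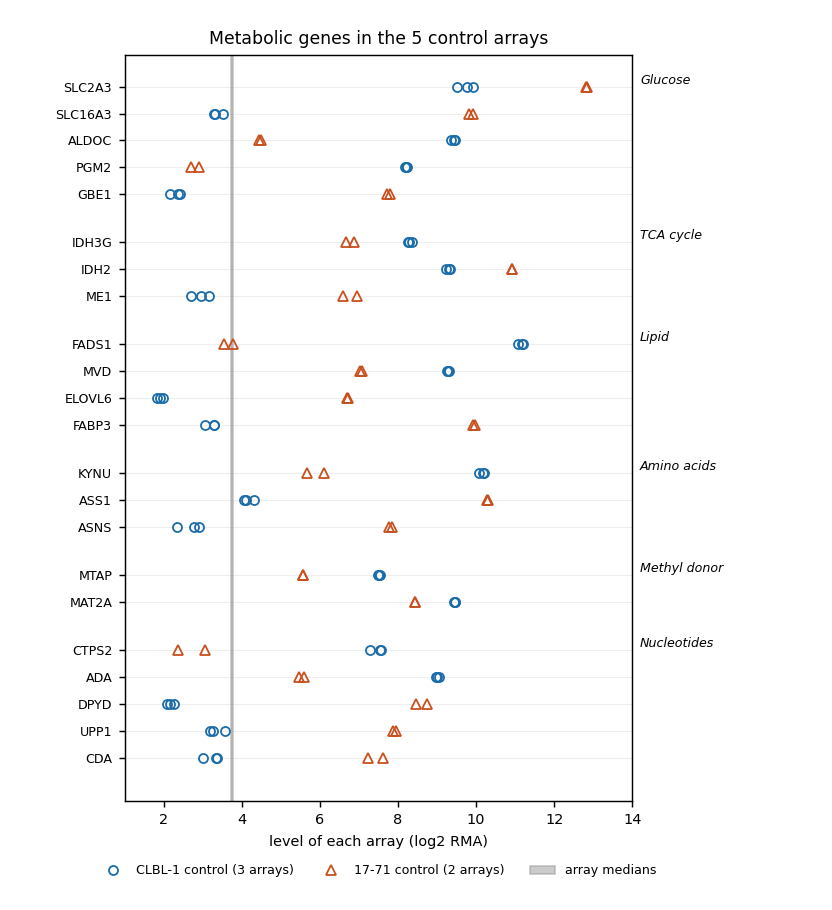
Levels of 22 metabolic genes in the 3 CLBL-1 control arrays (circles) and the 2 17-71 control arrays (triangles) on the log2 RMA scale, with the range of the array medians as a grey band. The circles lie to the right of the triangles for genes such as FADS1 and CTPS2, and to the left for SLC16A3, GBE1, ASS1 and DPYD.

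Proliferation genes were the most one-sided list. Of 50 measured, 47 were higher in CLBL-1 and 1 in 17-71, beside 21.7% and 20.2% of all genes. Of the 47, 29 were at least 2-fold higher, and the median difference of the list was 1.12 beside 0.02 over all genes. KIF20A, a kinesin of cytokinesis, measured 8.74, 8.70 and 8.72 in CLBL-1 and 6.15 and 6.17 in 17-71 (5.9-fold, adjusted p = 8.65e-08), and cyclin A2 (CCNA2) measured 9.27, 9.14 and 9.22 in CLBL-1 and 7.05 and 7.11 in 17-71 (4.38-fold, adjusted p = 1.61e-07). Cyclin E2 (CCNE2, 7.15 against 4.84), the phosphatase CDC25C (6.98 against 4.72), E2F8 (8.27 against 6.21) and the licensing factor CDT1 (7.63 against 5.71) followed. The proliferation marker MKI67 was high in both lines with a smaller difference (10.78 against 10.03), MCM4 was the gene higher in 17-71 (9.53 against 9.76, a call lost without any 1 of the 5 control arrays), and AURKB differed by 0.12 ± 0.10 (adjusted p = 0.455). The D-type cyclins, which were not on this list, differed in both directions, with cyclin D3 (CCND3) higher in CLBL-1 (8.47 against 6.82). CCND1 measured 2.71, 3.00 and 2.82 in CLBL-1 and 9.88 and 9.78 in 17-71, cyclin D2 measured 7.66, 7.76 and 7.95 in CLBL-1 and 11.87 and 11.81 in 17-71, and their kinase partner CDK6 had means of 3.08 against 7.03, all higher in 17-71, as was the inhibitor CDKN1A (3.93 against 6.74). Since the lines were collected on different days, culture age moved with the proliferation list and cannot be told apart from the line.

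Of 32 hypoxia targets, 19 were higher in 17-71 and 4 in CLBL-1 (median -0.64). The 4 were led by ALDOC, which was higher in CLBL-1 by 4.94 log2 units. Adrenomedullin (ADM) measured 4.15, 4.21 and 4.71 in CLBL-1 and 8.51 and 8.43 in 17-71 (17.3-fold, adjusted p = 6.63e-07), the mitochondrial adenylate kinase AK4 measured 2.43, 2.79 and 2.81 in CLBL-1 and 9.21 and 9.13 in 17-71 (90.2-fold, adjusted p = 1.73e-07), and DDIT4 had means of 6.83 against 9.34. VLDLR measured 2.86, 2.76 and 3.05 in CLBL-1 and 5.79 and 6.82 in 17-71, with the 17-71 arrays further apart than those of most genes. Of 37 immediate early and stress genes, 20 were higher in 17-71 and 9 in CLBL-1 (median -0.55). The list divided within itself. EGR2 and EGR1 were higher in CLBL-1, whereas JUN (4.53 against 8.09) and DUSP6, a phosphatase that turns off ERK (5.25 against 9.70), were higher in 17-71. These lists, too, cannot be told apart from the day of collection.

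MYC, the growth-promoting factor, measured 7.81, 7.84 and 7.90 in CLBL-1 and 8.41 and 8.31 in 17-71, slightly higher in 17-71 (-0.51 ± 0.08, adjusted p = 0.0012), and its partner MAX was slightly higher in CLBL-1 (8.15 against 7.77), a call lost under cyclic loess and without replicate 2 of 17-71 (adjusted p = 0.0722). The antagonist MXI1 was 7.82-fold higher in 17-71 (5.39 against 8.36). Of 56 lymphoma suppressors and drivers, 24 were higher in CLBL-1 and 21 in 17-71 (median 0.01). The inhibitor CDKN2B, which binds CDK4 and CDK6, measured 9.49, 9.50 and 9.61 in CLBL-1 and 7.62 and 7.80 in 17-71 and was higher in CLBL-1, although its second probe set was low in both lines (2.80 against 3.04) and did not pass. NOTCH2 (6.36 against 9.21) and SATB1 (2.38 against 6.03) were higher in 17-71.

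Death, NF-kB and interferon genes differed in both directions. Of 36 genes of the BCL2 family and death receptors, 11 were higher in CLBL-1 and 15 in 17-71, with CASP4 (8.01 against 5.00) and FASLG (5.12 against 2.36) higher in CLBL-1 and the survival protein BCL2A1 (8.54 against 10.32) and its antagonist PMAIP1 (7.75 against 9.29) higher in 17-71. Of 38 NF-kB subunits and targets, 10 were higher in CLBL-1 and 14 in 17-71. The cytokine gene LTA measured 8.23, 8.15 and 8.29 in CLBL-1 and 3.61 and 3.54 in 17-71 (25-fold, adjusted p = 1.89e-06) and its relative TNF measured 7.98, 7.91 and 7.89 in CLBL-1 and 3.69 and 3.62 in 17-71 (19.4-fold, adjusted p = 1.53e-06), both higher in CLBL-1. IL10 (2.59 against 6.20) and the chemokine CCL5 (3.24 against 6.54) were higher in 17-71. Of 39 interferon response genes, 7 were higher in CLBL-1 and 17 in 17-71, led by TRIM22 (2.45 against 7.18), PARP9 (3.44 against 6.89) and OAS2 (6.14 against 8.66). Among 37 homeobox genes, 2 were higher in CLBL-1 and 11 in 17-71, with HOXA7 measuring 3.47, 3.42 and 3.57 in CLBL-1 and 7.24 and 7.12 in 17-71 and MEIS1 at 2.06 against 4.19. Of 9 genes of the X and Y chromosome list measured here, all X-linked, 2 were higher in each line, beside 21.7% and 20.2% of all genes. The calls of UBA1 and TXLNG were each lost in at least 1 alternative. No Y-linked gene of the list was measured, nor was XIST.

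The line difference was also taken between the treated arrays, whose group means share no array with those of the control comparison, although both comparisons used 1 common estimate of the spread from all 10 arrays. Of 2598 genes called and at least 2-fold apart in the control arrays, 2566 (98.8%) also passed in the same direction in the treated arrays, where 42.5% of all genes passed in either direction, whereas 2597 had the same sign, and the 1 gene of opposite sign did not pass in the limma fit. MS4A1 differed by 9.47 in the treated arrays, KIT by -7.47, FADS1 by 6.65 and ASS1 by -6.43. Collection day was confounded with the line in these arrays as well.

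Genes that differed strongly were in places neighbours in the RefSeq gene order of assembly UU_Cfam_GSD_1.0, taken over the measured genes. KLF3, TBC1D1 and PGM2 are consecutive on chromosome 3. TBC1D1, a GTPase-activating protein of glucose transporter traffic, had means of 10.65 against 5.75, so that all 3 were at least 4.90 log2 units higher in CLBL-1 on the probe sets used, while the second probe set of TBC1D1 differed by 2.18 (8.56 against 6.38). The next measured genes on either side, TLR10 (7.82 against 6.94) and RELL1 (6.10 against 5.28), differed by less than 1 log2 unit. KLHL5, 6 measured genes from TBC1D1, was higher in 17-71 (3.99 against 7.59). On chromosome 1, DPY19L3 and ZNF507 are adjacent, with ZNF507 at 6.83 against 1.52. The next gene beyond ZNF507, TSHZ3, was higher in 17-71 (2.65 against 4.44). PDCD5, the next beyond DPY19L3, did not pass (8.11 against 8.11). On chromosome 4, RTKN2 (7.60 against 2.40) lies 3 measured genes from EGR2, with ZNF365 (4.50 against 4.48) and ADO (4.78 against 4.00) between them. RHOBTB1 (3.06 against 6.79), 6 measured genes from EGR2 on that side, was higher in 17-71. On chromosome 27, C1RL (3.51 against 8.41), FOXJ2 (6.49 against 9.52) and SLC2A3 near CD163 were, like CD163, higher in 17-71. Other genes near CD163, such as CLSTN3 (4.22 against 3.90), did not pass. MTAP and CDKN2B are adjacent on chromosome 11 and differed by 1.94 ± 0.07 and 1.82 ± 0.09.

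Whole chromosomes also differed in their median. Over the 15249 genes placed on a chromosome the median difference was 0.02, and it ran from -0.22 on chromosome 35 to 0.24 on chromosome 19. The 5504 placed genes with a mean level above 6 were then taken, a limit chosen after seeing the data. Of these, 38.5% were higher in CLBL-1 and 30.8% were higher in 17-71. Their median difference was 0.08 over all chromosomes. It was 0.94 on chromosome 29, where 36 of 46 genes were higher in CLBL-1 and 5 higher in 17-71, and 0.77 on chromosome 19, with 36 of 48 and 4. It was -0.82 on chromosome 14, where 55 of 74 genes were higher in 17-71 and 8 higher in CLBL-1, and -0.73 on chromosome 35, with 27 of 40 and 6. YTHDF3 and CCNE2 lie on chromosome 29, ARHGAP15 and CCNA2 on chromosome 19, and ETV1, ASNS and HOXA7 on chromosome 14. The treated arrays gave 1.08, 0.89, -0.75 and -0.40 for these 4 chromosomes. These medians are a description without a test, and DNA copy number was not analysed here.

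**Figure D5:**
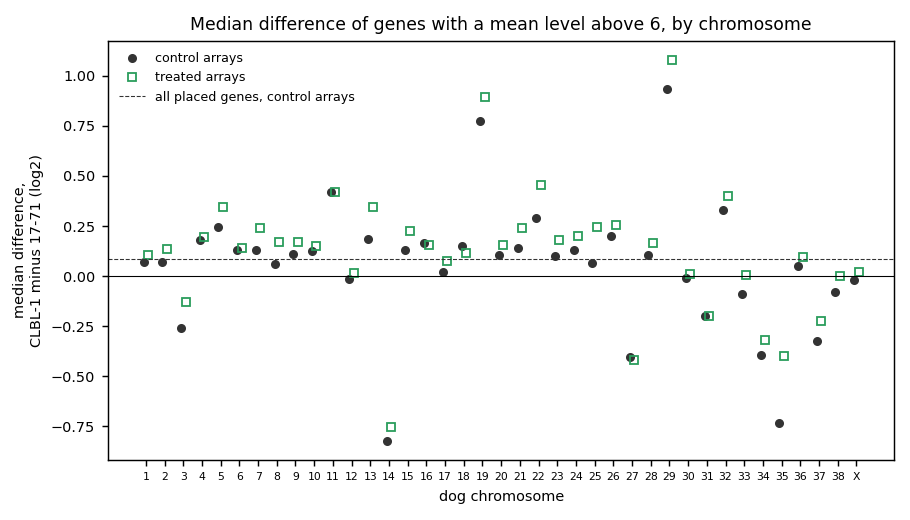
Median difference CLBL-1 minus 17-71 on the log2 scale (y axis) of genes with a mean level above 6, for each dog chromosome (x axis), in the control arrays (filled circles) and the treated arrays (open squares). The dashed line marks the control median over all placed genes at 0.08, and chromosomes 29, 19, 14 and 35 lie furthest from it.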

How the data were processed

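Total RNA was hybridised to 10 Affymetrix canine gene arrays, and the 5 control arrays were compared. The authors deposited log2 intensities summarised per probe set by RMA, and the submitters' processing notes also name limma and Affymetrix Expression Console. Array annotation and genome build were not given in the sources used here, and whether RMA was run on all arrays together was not stated. Of 32391 probe sets, 16545 carried 1 gene symbol, 370 carried several and 15476 carried none. Gene IDs of 15820 were found in the RefSeq gene table of assembly UU_Cfam_GSD_1.0, which changed 0 symbols. 1573 probe sets repeated the values of an earlier one.

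Group means of all 10 arrays were fitted with limma 3.58.1 in R 4.3.3 (6 residual degrees of freedom, 2.39 prior degrees of freedom) and the lines compared in control and, separately, treated arrays. The study describes biological triplicate experiments, but the labels do not say whether numbered arrays came from separate cultures, so p-values measure the spread between these arrays. The 3 arrays against 2 limit the precision. A gene was represented by its probe set of highest mean. The 37 gene lists and the members were chosen with earlier results of these data known. Named genes were PRMT5, MYC and MTAP, the 15 largest differences in each direction without overlap, up to 6 passing members per list, defining markers, and 2-fold markers of other cell types. SPI1, CD180, CD83, CD48, LYZ, CDKN2B, MKI67, AURKB, MCM4, TPI1, TBC1D1, ZNF507, RTKN2, RELL1, TLR10, CCND3, BTK, BANK1, PTPRC, XBP1, PRDM1, CD34, CD14, CSF1R, CD3E, CD4 and CD8A fell outside this rule and were chosen after their values were seen. Alternatives were control arrays alone, other normalisations, an intensity trend, a filter on low values, a replicate block, repeated probe sets once, the mean of a gene's probe sets and leaving out each array. ZNF365, ADO, RHOBTB1, C1RL, FOXJ2, CLSTN3, KLHL5, TSHZ3, PDCD5 and VIM were also chosen after their values were seen. They were not among the 263 named genes followed under the alternatives. The fit was tested on simulated data.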

Additional observations from a re-analysis of the deposited data

Results flagged for a closer look

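Named genes were checked for a line difference that itself differed between control and treated arrays, using the difference of both contrasts in the same limma fit. Of 15947 genes, 7 (0.0439%) passed an adjusted p below 0.05, and 2 of them were named above. For IDH3G, a subunit of isocitrate dehydrogenase, the line difference was 1.52 in control arrays and 0.21 in treated arrays, so that they differed by 1.31 (adjusted p = 0.0401). Its levels were 8.25, 8.28 and 8.35 in control and 6.80 and 6.89 in treated CLBL-1, and 6.67 and 6.87 in control and 6.55, 6.72 and 6.62 in treated 17-71. For CXCR5 the line difference was 5.10 in control arrays and 4.07 in treated arrays, a change of 1.03 (adjusted p = 0.0401). Its levels in 17-71 were 3.71 and 3.58 in control and 4.52, 4.50 and 4.47 in treated arrays, and in CLBL-1 they were 8.68, 8.76 and 8.80 in control and 8.59 and 8.54 in treated arrays. All 4 groups had under 4 arrays, too few to look for an array far from the others of its group.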

How the results depend on the processing

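With 2 or 3 arrays a group, no detection calls and line confounded with day of collection, the data limit differences of low genes most. The count of probe sets past the threshold stayed between 8466 and 9235 when 1 control array was left out and between 9310 and 10588 under the other alternatives, against 10188. With the 2-fold rule it was 3699 to 3870 and 3145 to 3767, against 3739, the lowest with the filter on low values, which tests fewer probe sets. In treated arrays it was 8265 to 9566 without 1 array and 10553 with the intensity trend, against 10131. Cyclic loess turned the split from 5429 higher in CLBL-1 and 4759 higher in 17-71 to 4764 and 5258.

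Same-numbered control arrays of the lines deviated from their group means with correlations of -0.00117 and 0.0134. The deviations of the 2 arrays of 17-71 mirror each other, so these values cannot show whether the numbers pair the arrays. With the replicate block 9310 probe sets passed, and 3752 with the 2-fold rule.

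Of 251 named genes that passed, 241 kept direction and call under every alternative fitted to them and 10 lost the call in at least 1. The filter on low values covered 240 of the 263 named genes, and the mean of a gene's probe sets was run for the lists alone. The 10 genes that lost the call were CLDN5, VWF, CLNS1A, MXD1, MAX, TXLNG, UBA1, DLA-DQA1, LYZ and MCM4. CD74 and PTPRC, which had not passed, passed in some. Differences near 0 that did not pass turned sign, for DLA-DRA under quantile normalisation (-0.0774) and cyclic loess (-0.165) and for AURKB under cyclic loess (-0.0200). Leaving out 1 control array gave -0.149 to 0.00194 for CD14, above 0 without replicate 1 of CLBL-1, and -0.220 to 0.0354 for CD3E, above 0 without replicate 2 of 17-71 or replicate 3 of CLBL-1. The cause was not tested. List counts stayed within 1.5-fold for all 37 lists under the other normalisations and the mean of probe sets, while list medians moved by more than the replicate spread in 21 under cyclic loess, 12 under quantile normalisation, 1 with centred arrays and 1 with the mean of probe sets.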
